A study of Homo sapiens with 6 samples.

Results

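TRAIL, the ligand encoded by TNFSF10, was examined together with its 5 receptors and FAS in UE7T-9 cells that overexpressed SHC4. The genes were TNFSF10, TNFRSF10A, TNFRSF10B, TNFRSF10C, TNFRSF10D, TNFRSF11B and FAS. They were 7 of the 28181 genes in the files, and all 7 were among the 23040 genes that passed a mean normalized read count of at least 1. They were picked by name after the contrast of UE7T-9 SHC4 with UE7T-9 Cont had been computed, so their values in it are a description and carry no test.

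UE7T-9 is a line of mesenchymal stem cells from human bone marrow, which hTERT and the E7 gene of a human papillomavirus made immortal. UE7T-9 SHC4 cells were infected with a lentivirus that drove SHC4, an adaptor protein of receptor tyrosine kinases, from a CMV promoter, and were selected with puromycin. UE7T-9 Cont is described in the study's methods as carrying a GFP vector of the same kind, whereas the labels call these samples Nontarget with genotype WT. RNA from 3 samples of each was sequenced to ask which genes differed when SHC4 was overexpressed. The series text speaks of clones of SHC4 OE cells, and no source says whether the 3 samples of a group came from separate infections, clones or cultures. The labels call each sample a bio rep without saying more. The p-values given here therefore rest on the spread between these samples only, which may not cover separate infections, clones or cultures.

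TRAIL is a membrane ligand of the TNF superfamily. It binds the death receptors encoded by TNFRSF10A and TNFRSF10B, which carry a cytoplasmic death domain, recruit FADD and caspase-8 and can start apoptosis. TNFRSF10C, which lacks a cytoplasmic domain, and TNFRSF10D, whose death domain is truncated, bind the ligand without passing on that signal and are called decoy receptors. TNFRSF11B encodes osteoprotegerin, a secreted receptor made by stromal cells of bone marrow, which binds both TRAIL and the osteoclast factor RANKL. FAS is the receptor of FAS ligand and signals through the same adaptor and caspase.

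TNFSF10 is known as an interferon-inducible gene, and its promoter is shown because the interferon response genes are set beside it further on. The stretch printed here is upstream of every annotated TNFSF10 start and covers chr3:172523508-172523680 of GRCh38.p14, read on the minus strand from RefSeq. Capitals mark the match to the core of the interferon-stimulated response element.
TNFSF10 promoter: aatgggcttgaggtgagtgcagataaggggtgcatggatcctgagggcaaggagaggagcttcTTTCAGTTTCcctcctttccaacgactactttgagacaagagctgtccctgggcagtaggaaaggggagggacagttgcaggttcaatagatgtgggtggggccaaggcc
The motif searched was GAAA, any 2 bases and again GAAA, on both strands, and the match began 187 bases before the RefSeq start. The search covered the whole RefSeq window of 300 bases around that start, and the same letters were found in 3.57% of the 35116 RefSeq windows of 300 bases. A TATA box (TATAAA, in 11.5% of windows) stood 31 bases before the start, and the 2 matches did not overlap. The gamma-activated site TTCNNNGAA (7.66% of windows), the GC box GGGCGG (45.0%), the AP-1 site TGANTCA (7.71%) and the FOXO site GTAAACA (3.42%) had no match in the TNFSF10 window. The 3 windows of FAS held none of the interferon-stimulated, gamma-activated, TATA or FOXO letters, all 3 held the GC box, and 1 held the AP-1 letters. A match of letters is a description and not a site of binding.

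The 4 TRAIL receptor genes lie side by side on chromosome 8 in GENCODE 29 on GRCh38. TNFRSF10B (ENSG00000120889) spans 23020133 to 23069179, TNFRSF10C (ENSG00000173535) 23102590 to 23117437, TNFRSF10D (ENSG00000173530) 23135588 to 23164030 and TNFRSF10A (ENSG00000104689) 23190452 to 23225126. TNFRSF11B (ENSG00000164761) lies elsewhere on the same chromosome, at 118923557 to 118952200. TNFSF10 (ENSG00000121858) is on chromosome 3 at 172505508 to 172523507, and FAS (ENSG00000026103) is on chromosome 10 at 88990582 to 89015785.

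The libraries held 18144993 to 27721397 reads, and 3 reads corresponded to a normalized read count of 2.50 to 3.53, and each of the 7 genes was far above that in every library. SHC4 was 56.5 to 157 normalized read counts in UE7T-9 Cont and 119166 to 155006 in UE7T-9 SHC4, as the labels state. UE7T-9 Cont replicate 1 stood apart from the other controls. Across genes its correlation was 0.975 with UE7T-9 SHC4 replicate 1, against 0.967 and 0.962 with UE7T-9 Cont replicates 2 and 3. The log2 fold changes of the 7 genes are therefore also given without it, as are calls in other genes that depended on it. All 9 markers of mesenchymal stromal cells had a mean of at least 100 normalized read counts, and none of the markers of T and NK cells, blood cells, endothelium or epithelium did. The stromal markers summed to 131915 to 392721 in the controls and to 203971 to 362764 in UE7T-9 SHC4. Most of each sum was COL1A1 alone, at 67813 to 315040 in the controls and 122240 to 276720 in UE7T-9 SHC4. The log2 fold change was above 0 for 8 of the 9 stromal markers and below it for 1, NT5E (-0.36). DESeq2 called PDGFRB and LEPR higher. The 5 epithelial markers, all with a log2 fold change below 0, summed to 78.9 to 169 in the controls and to 17.5 to 75.6 in UE7T-9 SHC4. DESeq2 called KRT18 lower among them, while EPCAM, the defining marker, was between 0 and 4.92 in every library. With all libraries limma called none of the stromal or epithelial markers. Without UE7T-9 Cont replicate 1 it called 3 stromal markers higher (THY1, PDGFRB and LEPR) and 1 epithelial marker, KRT18, lower. THY1 moved from a log2 fold change of 1.15 to 1.67 and KRT18 from -2.92 to -3.13. The part of these shifts in the results on the 7 genes was not tested.

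TNFSF10, the ligand, had a normalized read count of 75.1, 117 and 149 in UE7T-9 Cont replicates 1, 2 and 3. The UE7T-9 SHC4 replicates had 34.3, 47.4 and 52.4. All 3 UE7T-9 SHC4 libraries were below all 3 controls, and UE7T-9 Cont replicate 1 was the control nearest to them. The means were 113 ± 36.8 and 44.7 ± 9.37 (SD, n = 3), and the UE7T-9 Cont mean was 2.54 times that of UE7T-9 SHC4. The log2 fold change on the log2(value + 1) scale, UE7T-9 SHC4 against UE7T-9 Cont, was -1.29 (standard error 0.31). It was -1.56 without UE7T-9 Cont replicate 1, and leaving out each library in turn kept it between -1.56 and -1.07. In bulk RNA, fewer cells that express a gene and less RNA per cell cannot be told apart.

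TNFRSF10A, a death receptor, had a normalized read count of 277, 572 and 585 in the controls and of 183, 229 and 313 in UE7T-9 SHC4. Overlap between the groups came from UE7T-9 Cont replicate 1, which lay inside the range of UE7T-9 SHC4, while the other controls lay above it. The means were 478 ± 174 and 242 ± 66.2 (SD, n = 3). On the log2 scale the fold change was -0.94 (standard error 0.30). It was -1.29 without UE7T-9 Cont replicate 1 and -0.75 without UE7T-9 Cont replicate 3, the 2 ends of the range when single libraries were left out. TNFRSF10A shared 224 exon bases (7.59%) with TNFRSF10A-AS1 and 266 (9.01%) with AC100861.1, both on the opposite strand and each at most 47.2 normalized read counts.

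TNFRSF10B, the other death receptor, had the highest level per length of the TRAIL receptors, as given further on. Its normalized read count was 6363, 10619 and 12138 in UE7T-9 Cont. In UE7T-9 SHC4 it was 5648, 6196 and 7212. The same control, replicate 1, lay within the range of the UE7T-9 SHC4 libraries, so that the groups overlapped. The means were 9707 ± 2994 and 6352 ± 794 (SD, n = 3), and on the log2 scale the fold change was -0.57 (standard error 0.24). This became -0.85 without UE7T-9 Cont replicate 1 and -0.38 without UE7T-9 Cont replicate 3, so the size of the difference rested on which controls were kept.

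TNFRSF10C, the decoy held to the membrane by a lipid anchor, had a normalized read count of 188, 457 and 442 in the controls and of 136, 345 and 406 in UE7T-9 SHC4. Replicate 1 was by far the lowest library of each group, and the other UE7T-9 SHC4 libraries lay close to the other controls. The means were 362 ± 151 and 296 ± 142 (SD, n = 3). On the log2 scale the fold change was -0.33 (standard error 0.44) and its direction depended on single libraries. It was -0.75 without UE7T-9 Cont replicate 1 and 0.16 without UE7T-9 SHC4 replicate 1. TNFRSF10C shared 485 exon bases (26.0% of its exons) with AC107959.4, a gene on the same strand with at most 6.99 normalized read counts in any library. It shared 249 (13.3%) with AC107959.5, also on the same strand and without a value here. How the counting treated reads in shared bases is not given, so the count of TNFRSF10C is uncertain there.

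TNFRSF10D, the decoy with the truncated death domain, had a normalized read count of 1223, 1620 and 1645 in UE7T-9 Cont. It was 947, 1005 and 1286 in UE7T-9 SHC4. UE7T-9 Cont replicate 1 lay just below the highest UE7T-9 SHC4 library, and the other controls were above every UE7T-9 SHC4 library. The means were 1496 ± 236 and 1079 ± 181 (SD, n = 3). The log2 fold change was -0.47 (standard error 0.17), with a range of -0.61 to -0.38 when single libraries were left out.

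TNFRSF11B was the only one of the 7 genes with a higher mean in UE7T-9 SHC4. Its normalized read count was 401, 320.2 and 218 in the controls and 1098, 571 and 830.3 in UE7T-9 SHC4. All 3 UE7T-9 SHC4 libraries were above all 3 controls, and replicate 1 was the highest library of each group. The means were 313 ± 91.3 and 833 ± 263 (SD, n = 3), and the UE7T-9 SHC4 mean was 2.66 times that of UE7T-9 Cont. The log2 fold change was 1.40 (standard error 0.27), it was 1.60 without UE7T-9 Cont replicate 1, and it stayed between 1.17 and 1.65 when single libraries were left out. TNFRSF11A, the gene of RANK, through which RANKL acts on osteoclast precursors, was 60.4, 98.9 and 147 in the controls and 45.7, 64.9 and 76.9 in UE7T-9 SHC4. The TNFRSF11A groups overlapped (log2 fold change -0.64, standard error 0.35, limma adjusted p = 0.439), with -0.97 (limma adjusted p = 0.0979) without UE7T-9 Cont replicate 1.

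FAS had a normalized read count of 2175, 3531 and 4229 in UE7T-9 Cont. In UE7T-9 SHC4 it was 2025, 2858 and 3110.3. Replicate 1 was the lowest library of both groups, and there was overlap between the groups. The means were 3312 ± 1045 and 2665 ± 568 (SD, n = 3), and the log2 fold change was -0.28 (standard error 0.25). It was -0.56 without UE7T-9 Cont replicate 1 and -0.08 without UE7T-9 Cont replicate 3. FAS shared 380 exon bases (8.93%) with ACTA2 on the opposite strand, and the strand setting of the counting is not given in the sources used here. ACTA2 was 2073, 1512 and 2599 normalized read counts in the controls and 2597, 2604 and 1701 in UE7T-9 SHC4. Whether reads of ACTA2 entered the count of FAS was not tested.

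**Figure D1:**
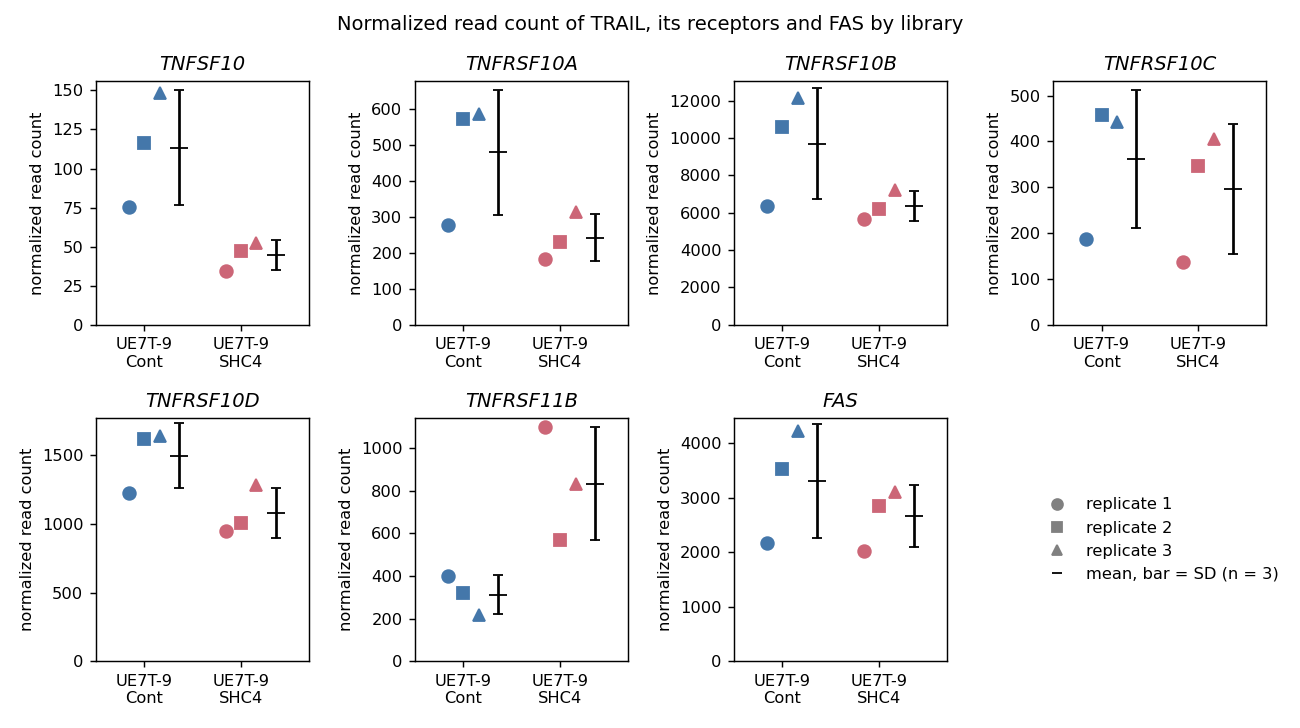
Normalized read count (y axis, from 0, a scale of its own in each panel) of the 7 genes in UE7T-9 Cont (blue) and UE7T-9 SHC4 (red), 1 point per library, with the mean and SD (n = 3) in black. TNFSF10 and TNFRSF11B are the 2 genes whose groups do not overlap, and the circle of UE7T-9 Cont replicate 1 is the lowest control in every panel other than that of TNFRSF11B.

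Counted over the 7 genes, TNFSF10 alone lay below and TNFRSF11B alone lay above all libraries of the other group. Among all 23040 genes tested the same held for 10.2% in the lower direction and 9.13% in the higher. The log2 fold change was below 0 for 6 of the 7 genes and for 50.3% of all genes. By limma (an absolute log2 fold change above 1 at an adjusted p below 0.05) none of the 7 genes was called, against 0.00868% of genes called lower and 0.0521% called higher. At an unadjusted p below 0.05 there were 5 of the 7 genes and 14.4% of all genes. DESeq2 on the recovered reads called TNFSF10 lower (1.15% of genes) and TNFRSF11B higher (1.05%). The quasi-likelihood test of edgeR called none of them (0.00631% of genes lower and 0.0568% higher). Without UE7T-9 Cont replicate 1, limma called TNFSF10 and TNFRSF10A lower (1.47% of genes) and TNFRSF11B higher (1.59%). As the genes were chosen on this contrast, nothing is read from these counts.

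**Figure D2:**
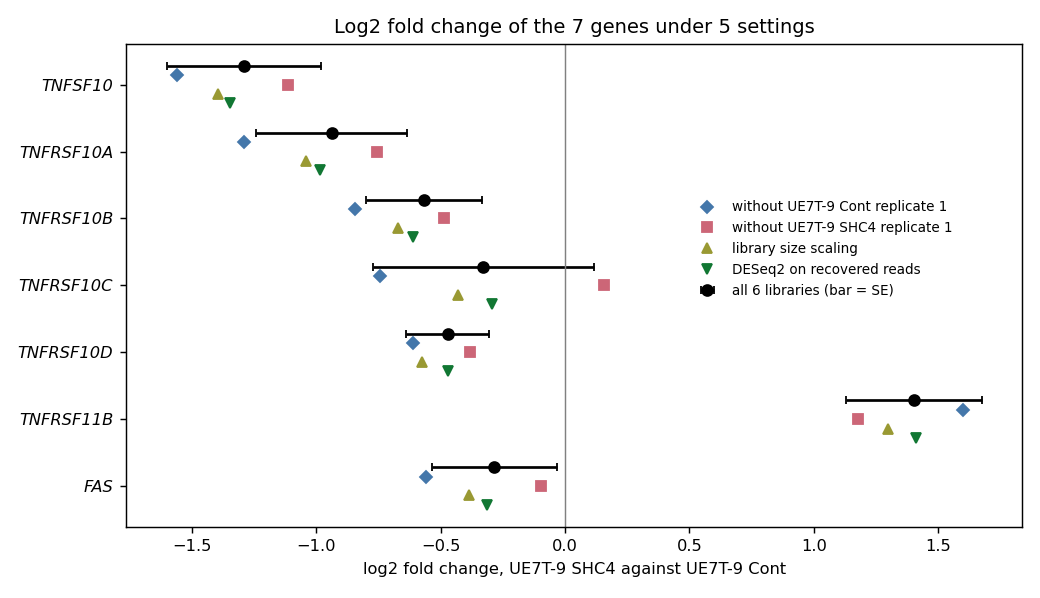
Log2 fold change of UE7T-9 SHC4 against UE7T-9 Cont (x axis) for each of the 7 genes under 5 settings, with the black bar giving the standard error of the fit to all 6 libraries. TNFSF10 stays below -1 and TNFRSF11B above 1 in every setting shown, and TNFRSF10C moves from -0.33 to 0.16 without UE7T-9 SHC4 replicate 1.

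The spread within each group had the same order for most of the 7 genes. UE7T-9 Cont replicate 1 was the lowest control for 6 of the 7 genes (42.2% of all genes tested). It lay within the range of the UE7T-9 SHC4 libraries for 5, and the share over all genes was not computed. Relative to the mean of the other controls, it held 0.478 of their TNFRSF10A, 0.559 of their TNFRSF10B, 0.419 of their TNFRSF10C, 0.749 of their TNFRSF10D, 0.566 of their TNFSF10 and 0.561 of their FAS. For TNFRSF11B the ratio was 1.49. UE7T-9 SHC4 replicate 1 was likewise the lowest UE7T-9 SHC4 library for 6 genes and the highest for TNFRSF11B. Here too the share over all genes was not computed, so nothing particular to the 7 genes is read from these counts. UE7T-9 Cont replicates 2 and 3 were both above every UE7T-9 SHC4 library for 6 of the 7 genes, against 21.3% of all genes. With all 3 controls this held for 1 of the 7 genes, against 10.2% of all genes. The first count leaves out the control that overlapped UE7T-9 SHC4, and the genes were chosen on this contrast. Nothing is therefore read from it.

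Levels were compared between genes only per length, as reads per base of merged exon scaled to a sum of 1000000 per library. TNFRSF10B ranked first (199 to 478 over the 6 libraries), FAS second (86.6 to 202) and TNFSF10 last (1.79 to 8.69) in all 6 libraries. The ranges of FAS and TNFRSF10D (48.6 to 94.4) overlapped over libraries, although FAS was the higher of the pair within each library. TNFRSF10C (13.3 to 48.0), TNFRSF11B (15.7 to 70.6) and TNFRSF10A (11.3 to 40.3) overlapped widely over libraries. TNFRSF10C was above TNFRSF10A within each of the 6 libraries, while the place of TNFRSF11B changed. TNFRSF11B ranked 4, 6 and 6 in the UE7T-9 Cont replicates and 3, 4 and 4 in the UE7T-9 SHC4 replicates.

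**Figure D3:**
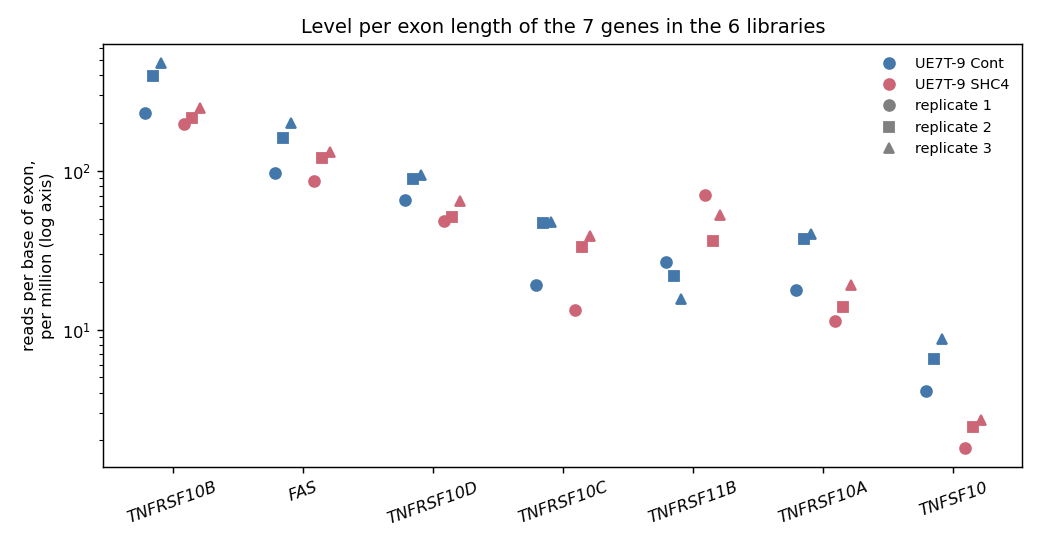
Level per exon length (y axis, log scale, reads per base of exon, scaled to 1000000 per library) of the 7 genes in each library, with UE7T-9 Cont in blue and UE7T-9 SHC4 in red. TNFRSF10B lies highest at 199 to 478 and TNFSF10 lowest at 1.79 to 8.69, and the TNFRSF11B points of UE7T-9 SHC4 lie above those of UE7T-9 Cont.

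The balance of decoy to death receptors was read from the same per-length levels. TNFRSF10C and TNFRSF10D together came to 33.6%, 31.2% and 27.5% of TNFRSF10A and TNFRSF10B together in the UE7T-9 Cont replicates. They came to 29.4%, 36.7% and 38.6% in the UE7T-9 SHC4 replicates. The groups overlapped, with means of 30.8% ± 3.10 and 34.9% ± 4.84 (SD, n = 3). The mean over the 6 libraries was 32.8% with merged exons and 27.4% with the longest coding transcript of each gene. The level of TNFRSF11B was 6.56, 3.38 and 1.81 times that of TNFSF10 in the controls and 39.3, 14.8 and 19.5 times in UE7T-9 SHC4. These ratios did not overlap, and they combine the only 2 of the 7 genes that were without overlap themselves.

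The receptors are related in sequence, so the exon sequence they have in common was counted. Of the 25-base words of the exons, TNFRSF10C shared 2.68% with TNFRSF10D, the highest share among the 7 genes, and TNFRSF10B shared 0.79% with TNFRSF10D. TNFSF10, TNFRSF11B and FAS shared none with any of the others.

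The neighbourhood of the receptor cluster was looked at for other genes. Within 500 kb of it on chromosome 8 20 other genes reached a mean of 10 normalized read counts. Among them RHOBTB2 and AC107959.2 overlap TNFRSF10B, and TNFRSF10A-AS1 and AC100861.1 overlap TNFRSF10A, all on the opposite strand. The log2 fold changes of the 20 ran from -1.36, that of AC107959.2, to 1.37 with a median of -0.10. Of the 20, 11 were below 0 and 9 above it. limma called none of the 20, with 4 at an unadjusted p below 0.05, edgeR called none and DESeq2 called 1. Without UE7T-9 Cont replicate 1 limma called 2 of them higher and none lower.

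The likeness of pattern was measured by Pearson's correlation of log2(value + 1) over the 6 libraries, among 14916 genes. DCLRE1A (0.998) and USP38 (0.997) were most like TNFSF10, and OPTN (0.997) and MICOS13 (0.989) were most like TNFRSF11B. The genes most like the receptors were GOSR1 and FUCA2 for TNFRSF10A, STPG1 and SDE2 for TNFRSF10B, ITM2B and PTPRA for TNFRSF10C, and CLEC2B and CDK17 for TNFRSF10D. TSPAN3 and CHM were most like FAS. A correlation of 0.95 was passed by 281 genes (1.88%) for TNFSF10, 438 (2.94%) for TNFRSF10B and 69 (0.463%) for TNFRSF11B. The points share their library and their group, and no function is read from them.

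The genes that act beneath the receptors were read from a list. Of its 13 genes of the death-inducing complex, 11 had a log2 fold change below 0 and 2 above it, with a median of -0.05 against -0.004 over all genes, and none was called by limma, DESeq2 or edgeR, nor had an unadjusted limma p below 0.05. CASP8, the initiator caspase, was 254, 377 and 519 normalized read counts in the controls and 263, 248 and 314 in UE7T-9 SHC4 (log2 fold change -0.43, standard error 0.24, limma adjusted p = 0.46), and its log2 fold change was -0.69 (limma adjusted p = 0.0649) without UE7T-9 Cont replicate 1. FADD, the adaptor that bridges receptor and caspase, stood at a log2 fold change of -0.09 (standard error 0.19). CFLAR, which encodes the caspase-8 inhibitor c-FLIP, stood at -0.02 (standard error 0.17), and PEA15, a death effector domain protein, at -0.05. FASLG was not analysed here.

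Among 26 caspases and genes of mitochondrial apoptosis, 15 were lower and 11 higher (median log2 fold change -0.09). limma and edgeR called none of them, with 7 at an unadjusted limma p below 0.05, and DESeq2 called 1. That gene was BMF, a pro-apoptotic BH3-only protein, at 109, 78.9 and 30.5 normalized read counts in the controls and 171, 239 and 213 in UE7T-9 SHC4. Its groups did not overlap, and its log2 fold change of 1.67 (standard error 0.41) had an adjusted p of 0.167 in limma and 0.00899 in DESeq2. Without UE7T-9 Cont replicate 1 limma called it higher, at 2.04 (adjusted p = 0.0145). The anti-apoptotic genes MCL1 (log2 fold change -0.24) and BCL2L1 (0.08) were called by neither. The list of inhibitors of apoptosis held 6 inhibitors and XAF1, which antagonizes XIAP and also stands on the interferon list. All 7 had a log2 fold change below 0 (median -0.24), among them XIAP (-0.19) and BIRC6 (-0.07), and none was called by limma, DESeq2 or edgeR or had an unadjusted limma p below 0.05. Without UE7T-9 Cont replicate 1 limma called XAF1 lower, from -0.65 to -1.29 (adjusted p = 0.0121).

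Among 12 other ligands of the TNF superfamily, 9 were lower and 3 were higher. The list had a median of -0.99 on the log2 scale, with 6 at an unadjusted limma p below 0.05. None was called by limma, DESeq2 or edgeR. Over the 7 ligands with a mean of at least 10 normalized read counts, a limit chosen after the data were seen, 5 were lower and the median was -0.91. TNFSF9, the ligand of the T cell costimulator 4-1BB, was 561, 1001 and 981 normalized read counts in the controls and 510, 342 and 473 in UE7T-9 SHC4. Its groups did not overlap and the log2 fold change came to -0.91 (SE 0.24, adjusted p = 0.183 in limma and 0.0194 in DESeq2). CD70, the ligand of CD27, was 514, 516 and 439 against 322, 300.5 and 321, again without overlap, and the log2 value was -0.63 (SE 0.14, adjusted p = 0.135 in limma and 0.00899 in DESeq2). TNFSF12, the ligand TWEAK, was higher without overlap, at 321, 264 and 201 in the controls and 392, 569 and 555 in UE7T-9 SHC4. Its log2 fold change came to 0.95 (SE 0.21, adjusted p = 0.146 in limma and 0.00791 in DESeq2). These 3 DESeq2 values came with a fold change under the size that a call required. Without UE7T-9 Cont replicate 1 the median of the 12 ligands was -1.31, and limma called TNFSF4, TNFSF9 and TNFSF13B lower and TNFSF12 higher. Of 18 other receptors tested, 9 were lower and 9 higher (median log2 fold change 0.04), limma, DESeq2 and edgeR called none, and 4 had an unadjusted limma p below 0.05. Without UE7T-9 Cont replicate 1 limma called 1 of them, NGFR, lower. NGFR was 3.90, 21.2 and 15.7 normalized read counts in the controls and 1.76, 4.16 and 2.33 in UE7T-9 SHC4. Its values in UE7T-9 SHC4 replicates 1 and 3 were below the floor of 3 reads. TNFRSF12A, the receptor of TWEAK, had a log2 fold change of -0.37, and TNFRSF1A, the main TNF receptor, of 0.08.

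Of 13 genes of endoplasmic reticulum stress, a route by which TNFRSF10B is known to be induced, 11 were lower and 2 higher (median -0.16), none was called by any of the 3 tools and 1 had an unadjusted limma p below 0.05. HSPA5, the chaperone BiP, stood at -0.37, and ATF4 at 0.20. The 4 FOXO and SP1 factors, of which 2 were lower and 2 higher, had a median of 0.07, with FOXO3 at -0.02 and SP1 at 0.16, and none was called by any tool or had an unadjusted limma p below 0.05.

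The interferon response genes also set UE7T-9 Cont replicate 1 apart from the other controls. The 27 genes summed to 41114 normalized read counts in UE7T-9 Cont replicate 1, against 170531 and 220251 in UE7T-9 Cont replicates 2 and 3. They summed to 45660, 58709 and 74067 in UE7T-9 SHC4. UE7T-9 Cont replicate 1 was the lowest control for 26 of the 27 genes, and the other controls both lay above every UE7T-9 SHC4 library for 26. All 27 had a log2 fold change below 0, with a median of -1.28 and of -2.22 without UE7T-9 Cont replicate 1. limma and edgeR called none of them with all 6 libraries, with 6 at an unadjusted limma p below 0.05, and limma called 23 lower without that control.

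DESeq2 called MX2 and EPSTI1 lower among the interferon genes. MX2, an antiviral GTPase, was 74.1, 1018 and 1639 normalized read counts in the controls and 58.0, 111 and 102.5 in UE7T-9 SHC4. Its log2 fold change by limma was -2.51 (adjusted p = 0.281) and its DESeq2 adjusted p was 0.0448. EPSTI1 had a log2 fold change of -1.02 by limma (adjusted p = 0.325) and a DESeq2 adjusted p of 0.0462. IFI6, an interferon-induced gene with a high mean on this list, stood at -1.49 (limma adjusted p = 0.5). The part of these genes in the values of TNFSF10 and its receptors was not tested.

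**Figure D4:**
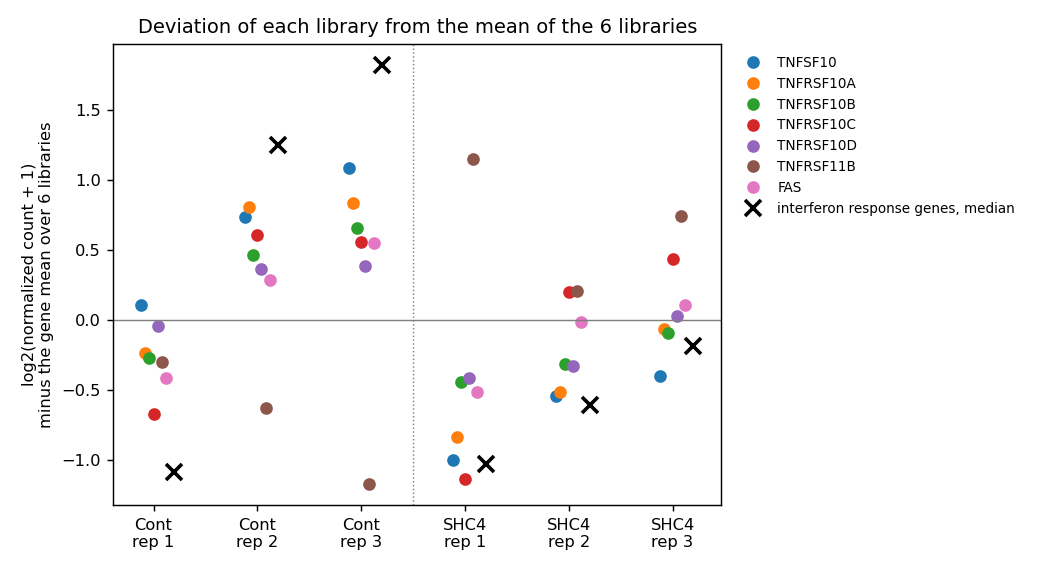
Deviation of each library from the gene's mean over the 6 libraries (y axis, log2(normalized count + 1)) for the 7 genes (coloured points), with the median of the 27 interferon response genes (crosses). The interferon median is -1.08 in UE7T-9 Cont replicate 1, 1.25 and 1.82 in the other controls and -1.03, -0.61 and -0.18 in UE7T-9 SHC4.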

How the data were processed

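Total RNA of 6 samples, 3 per group, was extracted with the RNeasy Mini Kit, and libraries were made with the NEBNext Ultra RNA kit. Each deposited value is a signal: the read count of a gene over the size factor of its library (here called normalized read count). The submitters' processing notes name HISAT2 2.0.5, featureCounts 1.5.0-p3 and DESeq2, without roles. Genome build, annotation and strand setting are not given in the sources used here. All deposited values were whole multiples of 1 read (100%, tolerance 0.01 reads), so reads were recovered by division. The size factors ranged from 0.849 to 1.20. Recovered depth was 18144993 to 27721397 reads (median 20494310 for the controls and 26347192 for UE7T-9 SHC4). The floor of 3 reads covers counting error only.

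Samples were grouped by their labels. Since the deposited values were normalized, limma 3.58.1 (eBayes with trend, R 4.3.3) was run on log2(value + 1). It covered the 23040 genes whose mean was at least 1, and p-values were adjusted over all of them by the Benjamini-Hochberg method. The other 5141 genes were left out. A call required an absolute log2 fold change above 1 at an adjusted p below 0.05. Folds on this scale understate the change of low genes. DESeq2 1.42.0 and edgeR 4.0.16 (quasi-likelihood) were run on the recovered reads as alternatives. The other alternatives were library size scaling, TMM, no filter, a mean of at least 10, a pseudocount of 0.1, no fold threshold, a replicate block and leaving out each library. Level per length with the longest coding transcript, and the median of the TNF ligands with a mean of at least 10, were added after the data were seen.

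Symbols were found for 22641 of 28181 identifiers (80.3%). Positions and exon lengths came from GENCODE 29 on GRCh38 by identifier, and promoters from RefSeq on GRCh38.p14. Promoter windows were matched for TNFSF10 and FAS. The tests were tested on simulated counts. The genes and lists were chosen with earlier results of these data known. Named genes were the 7 genes, SHC4, genes of each list called by limma or DESeq2, the 2 genes of each list with the highest mean, FASLG, FADD, CASP8, CFLAR, TNFSF11 and TNFRSF11A, and the 2 genes most like each of the 7. THY1, PDGFRB, LEPR, COL1A1, NT5E, KRT18 and EPCAM of the marker lists were named after their values were seen. The same holds for TNFSF4, TNFSF12, TNFSF13B, NGFR and XAF1 of the other lists, and for genes that overlap the 7 genes. TNFSF11, TNF and other listed genes without a value in the files were not analysed here. Some other genes that the rule named, and 1 list, are not reported here.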

Additional observations from a re-analysis of the deposited data

How the results depend on the processing

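limma called 14 genes in all (12 higher and 2 lower). The count was 28 with library size scaling, 24 with TMM, 40 without the filter on low values and 355 with DESeq2 (170 higher and 185 lower). Leaving out single libraries gave 2 to 706 genes. The highest count came without UE7T-9 Cont replicate 1, and the count was 6 without UE7T-9 Cont replicate 2, 63 without UE7T-9 SHC4 replicate 1 and 2 without UE7T-9 SHC4 replicate 2 or 3. None of the listed pathway genes was called by limma, 3 were called by DESeq2, and leaving out single libraries gave 0 to 30, with 30 without UE7T-9 Cont replicate 1. The cause was not tested. The decoy share of the death receptors was 32.8% with merged exons and 27.4% with the longest coding transcript. Over 14 alternatives the log2 fold change of FAS ran from -0.56 to -0.08 and that of TNFRSF10C from -0.75 to 0.16, the latter without UE7T-9 SHC4 replicate 1. The other 5 genes, and FAS, kept their sign. Library size scaling shifted the median log2 fold change of all genes to -0.10.

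The labels give both groups replicate numbers 1 to 3. With the number as a replicate block 39 genes were called (25 higher and 14 lower). Same-numbered samples correlated at 0.148, 0.013 and -0.00696 in their deviations from the group means over the 23040 genes, and at 0.409, 0.146 and 0.149 over the 12678 genes whose mean was at least 50. Of the 6 samples, 2 in the first set and 4 in the second correlated best with their own number. UE7T-9 Cont replicate 2 correlated best with UE7T-9 SHC4 replicate 3 in both sets (0.0992 and 0.517), above its own number (0.013 and 0.146). The number was not taken as a pairing. Within same-numbered samples 6 of the 7 genes were lower in UE7T-9 SHC4 in all 3, against 20.1% of all genes tested. Since the number is not taken as a pairing and the genes were chosen on this contrast, nothing is read from that count.

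With 3 libraries per group and no statement on separate cultures, the differences cover these libraries only.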
